A study of Mus musculus with 6 samples.

Results

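The 10 genes described here serve to recognise mural cells, the smooth muscle cells and pericytes that wrap blood vessels. They were taken by symbol from a table of 31273 genes measured in mouse left ventricle, and all 10 were found. Tagln, Cnn1 and Smtn mark smooth muscle. Rgs5, Higd1b, Pdgfrb, Cspg4, Notch3 and Mcam mark pericytes or mural cells more broadly. Myocd encodes myocardin, a transcriptional coactivator. Polyadenylated RNA was sequenced from 3 ventricle samples labelled control and 3 labelled with overexpression of RBM20, a cardiac splicing regulator, in cardiomyocytes only. The study's design text describes a knock-in that tamoxifen switches on in cardiomyocytes. The labels give no strain, age, tamoxifen schedule or time after induction, and do not say which alleles the controls carried. The sample titles differ only in cki for the controls and cre for the overexpression group, each with a number.

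Mural cells regulate vessel tone and stabilise capillaries. Endothelial cells secrete PDGF-B, which recruits pericytes through the receptor PDGFRB, and endothelial NOTCH ligands act on NOTCH3 in the mural cell. Myocardin binds serum response factor at CArG boxes and switches on contractile genes of smooth muscle, and it is also made by cardiomyocytes. Several of the 10 genes are not confined to mural cells. Activated fibroblasts can make Tagln, Cnn1 and Pdgfrb, endothelium can make Mcam, and glial cells can make Cspg4.

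Expression was given as TPM, a share of all transcripts corrected for gene length, so that levels of different genes can be compared. Counted reads were estimated at 41600000 to 70600000 per control library and 51000000 to 90000000 per overexpression library, and at 89.6 (Cnn1, control replicate 3) to 53600 (Rgs5, overexpression replicate 3) for the 9 members that were tested. Rbm20 followed the labels, with 74.9 to 90.9 TPM in the controls and 321, 913 and 907 TPM in overexpression replicates 1, 2 and 3. The estrogen receptor gene Esr1, part of which is built into tamoxifen-inducible Cre proteins, was at 0.234 to 0.415 TPM in the controls and 53.0 to 218 TPM with overexpression. An effect of such a transgene and of RBM20 itself cannot be told apart here. Overexpression replicate 1 was also the only library with the Y-linked Ddx3y above 0 (88.1 TPM). Its Xist, a transcript of female cells, was at 0.0172 TPM, against 34.4 to 62.6 TPM in every other library. By these genes overexpression replicate 1 reads as male and the other libraries as female. Sex was thus unbalanced between the groups, and its part in any difference was not tested. Mitochondrially encoded transcripts held 48.3% to 52.0% of the TPM in the controls and 36.6% to 41.0% with overexpression. TPM has a fixed total, and the median gene was higher with overexpression by 0.55 on the log2(TPM + 1) scale. With mitochondrially encoded genes left out and the rest brought to the same total, the median gene was still higher by 0.32. The libraries were therefore also put on a second scale with median-of-ratios size factors (0.783 to 0.848 in controls, 1.16 to 1.34 with overexpression). This brought the median of 0.55 to 0.01. Values on this second scale are called rescaled below. Apart from the titles and the difference in Ddx3y and Xist, nothing says that each library came from its own animal. The p-values therefore set group differences against the spread between these libraries, which may be partly technical.

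The mural markers did not move together. In TPM, Cnn1, Pdgfrb, Cspg4, Notch3, Mcam and Myocd rose, Smtn fell, and Rgs5 and Higd1b did not pass the test, in limma with Benjamini-Hochberg adjustment over all tested genes. That is 6 higher and 1 lower of 9 tested, against 59.0% higher and 9.09% lower, 68.1% in all, among 12404 genes. Tagln lay under the filter of a mean of 1 TPM and was not tested. After rescaling, Cnn1, Cspg4, Mcam and Myocd remained higher, and Smtn, Rgs5 and Higd1b were lower. That is 4 higher and 3 lower of 9, against 22.2% higher and 24.0% lower, 46.2% in all, among all tested genes. The median log2 difference of the 9 tested members was 0.97 in TPM and 0.37 after rescaling, beside 0.55 and 0.01 for all genes. The groups did not overlap in TPM for 6 of the 9, against 72.5% of all tested genes. After rescaling they did not overlap for Cnn1, Smtn, Rgs5, Cspg4, Higd1b and Myocd, against 57.0% of all tested genes. In whole tissue, fewer cells of a type and less RNA per cell cannot be told apart.

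**Figure D1:**
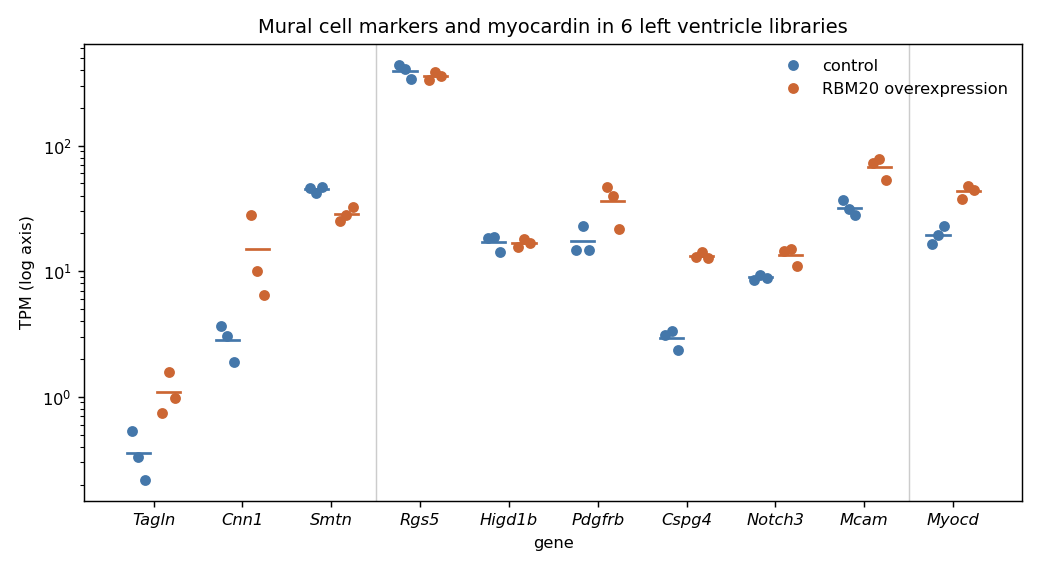
TPM of each gene on a log axis, with 1 point per library (3 control, 3 overexpression) and a bar at each group mean; grey lines separate smooth muscle genes, pericyte genes and Myocd. Rgs5 sits highest, between 336 and 440 TPM in all 6 libraries, and the overexpression points lie clear above the controls for Cspg4 and below them for Smtn.

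By level, Rgs5 stood far above the other members in each group, at 395 ± 53.3 TPM in the controls and 360 ± 24.5 TPM with overexpression (SD, n = 3 each). In the controls Smtn came next, then Mcam, and then Myocd, Pdgfrb and Higd1b, whose values overlapped. Notch3 followed, then Cspg4 and Cnn1, which overlapped at about the same level, and Tagln was lowest. With overexpression Mcam took the second place. Myocd, Pdgfrb and Smtn then formed a run in which each overlapped the next. Higd1b, Cnn1, Notch3 and Cspg4 formed a further run of that kind, with Tagln again last.

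Tagln encodes transgelin, an actin-binding protein that is normally abundant in smooth muscle. Its values were 0.529, 0.332 and 0.217 TPM in control replicates 1 to 3 and 0.741, 1.56 and 0.973 TPM in overexpression replicates 1 to 3. The groups did not overlap, but all 6 values are very low beside Acta2, smooth muscle actin, which was at 98.5 ± 7.51 and 110 ± 6.70 TPM (SD, n = 3 each). At its GENCODE length, the step between low values puts Tagln at 21.2, 18.7 and 7.48 reads in the controls and 28.7, 54.8 and 63.6 with overexpression. These are not whole numbers. A length 0.802 times as long, the smallest factor tried that made all 6 whole to 0.05 reads, gives 17, 15 and 6 against 23, 44 and 51. Those counts hold only up to a common whole factor. The gene model bears on how far this level can be read. Tagln lies on the minus strand of chromosome 9 at 45929619 to 45936058 (GRCm38, GENCODE M21, ENSMUSG00000032085.5). Of its 1988 exon bases 1349 (67.9%) are shared with exons on the opposite strand, 1241 with the antisense gene Gm48529 and 108 with the last exon of Pcsk7. Gm48529 itself was listed at 0 to 0.341 TPM in the controls and 0.287 to 0.667 TPM with overexpression. Among the other 9 members the shared part was 16.3% of exon bases for Smtn, 6.03% for Notch3, 0.507% for Mcam and 0 for the rest. Whether reads in shared exons were left out of the counting was not tested, so the level of Tagln is uncertain. When no filter on level was used, its log2(TPM + 1) difference was 0.61 (SE 0.17, limma adjusted p = 0.0278).

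**Figure D2:**
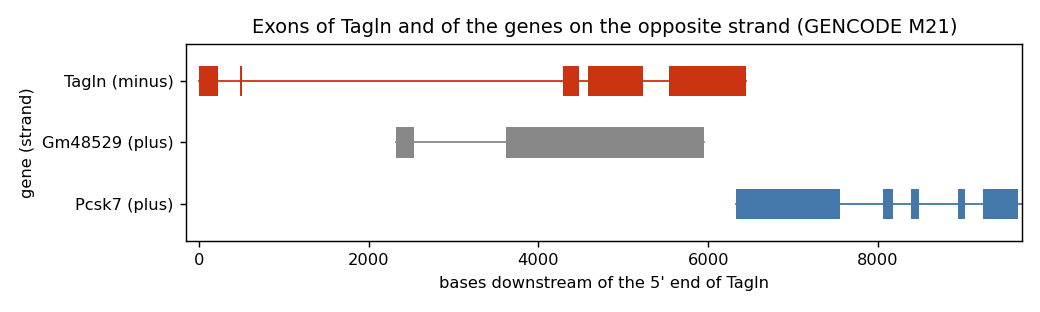
Exons (boxes) of Tagln on the minus strand and of Gm48529 and Pcsk7 on the plus strand, drawn against the distance in bases from the 5' end of Tagln. The long exon of Gm48529 spans the third and the fourth exon and part of the last exon of Tagln, and Pcsk7, of which the nearest part is drawn, reaches into the end of that last exon.

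Cnn1 encodes calponin, which restrains actomyosin in smooth muscle, and lies on the plus strand of chromosome 9 at 22099216 to 22109630 (GRCm38). It was at 3.63, 3.04 and 1.89 TPM in the controls and 28.2, 10.04 and 6.45 TPM with overexpression. The groups did not overlap, and overexpression replicate 1, the only library with Ddx3y, stood well above the rest of its group. The means were 2.85 ± 0.884 and 14.9 ± 11.7 TPM, a 5.23-fold increase (SD, n = 3 each), with a log2(TPM + 1) difference of 1.83 (SE 0.44, limma adjusted p = 0.00618). Without overexpression replicate 1 the increase was 2.89-fold. After rescaling the difference was 1.31 (limma adjusted p = 0.0421). That rescaled call ended without control replicate 2 (adjusted p = 0.0903), control replicate 3 (0.130) or overexpression replicate 2 (0.0623).

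Smtn encodes smoothelin, a protein of contractile smooth muscle, on the minus strand of chromosome 11 at 3517523 to 3540612. It was the member that fell, from 46.3, 41.9 and 46.5 TPM to 24.9, 28.1 and 32.2 TPM. Every overexpression library lay below every control library. The means were 44.9 ± 2.58 and 28.4 ± 3.66 TPM, 1.58-fold lower (SD, n = 3 each), with a log2(TPM + 1) difference of -0.65 (SE 0.12, limma adjusted p = 0.00144) and -1.26 after rescaling (adjusted p = 0.000267). Smtn and Cnn1, both contractile markers, thus moved in opposite directions. The ratio of Smtn to Cnn1 within a library, on which no library scaling acts, was 12.8, 13.8 and 24.6 in the controls and 0.881, 2.80 and 4.99 with overexpression. Smtn has several transcript forms, which a gene total does not separate.

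The upstream sequences of Smtn, Cspg4 and Rgs5 are shown, genes that fell, rose, and showed no call in TPM, respectively. Cspg4 was set by a rule fixed beforehand. Smtn, the only searched member with a motif match, and Rgs5 were added after the search. They are the part of the 250 bases before the RefSeq start that lies upstream of any GENCODE M21 exon in that window, on GRCm38.p6, 5′ to 3′ on the strand of the gene. Capitals mark matches to TGGGAA, the core site of the NOTCH effector RBPJ, or to the MCAT element CATTCC, bound by TEAD factors. The CArG box was searched too, and each motif on both strands. The stretch of Smtn lies in an intron of its longest GENCODE gene model, since 1 transcript starts further upstream.
Smtn, chr11:3539324-3539542, minus strand: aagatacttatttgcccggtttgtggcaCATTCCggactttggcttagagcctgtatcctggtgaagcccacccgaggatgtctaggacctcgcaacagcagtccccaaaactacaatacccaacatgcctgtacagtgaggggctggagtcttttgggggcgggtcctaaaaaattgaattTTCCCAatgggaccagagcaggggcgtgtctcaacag
Cspg4, chr9:56864854-56865032, plus strand: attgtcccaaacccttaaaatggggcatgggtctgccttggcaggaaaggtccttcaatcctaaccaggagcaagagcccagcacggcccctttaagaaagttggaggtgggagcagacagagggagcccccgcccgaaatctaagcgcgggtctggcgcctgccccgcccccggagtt
Rgs5, chr1:169655251-169655500, plus strand: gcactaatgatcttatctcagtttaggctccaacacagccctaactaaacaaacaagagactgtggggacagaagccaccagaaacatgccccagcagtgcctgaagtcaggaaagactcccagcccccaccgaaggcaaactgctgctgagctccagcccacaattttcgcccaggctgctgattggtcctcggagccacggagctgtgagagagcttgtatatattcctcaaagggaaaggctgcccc
Upstream windows of 250 bases were searched for 6 of the 10 members, Cnn1, Smtn, Rgs5, Cspg4, Notch3 and Mcam. Smtn held 1 MCAT element 222 to 217 bases before its start and 1 RBPJ core, on the opposite strand, 68 to 63 bases before it, and the other 5 windows held none of the 3 motifs. Among 32817 such windows of all genes 1.47% held a CArG box, 21.6% an RBPJ core and 12.6% an MCAT element. The 2 matches in Smtn did not overlap.

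Rgs5, a regulator of G-protein signalling, is the classical pericyte transcript, from chromosome 1 at 169655501 to 169695813. It was at 440, 407 and 336 TPM in the controls and 336, 385 and 359 TPM with overexpression. The groups overlapped, and the log2(TPM + 1) difference was -0.13 (95% limits -0.39 to 0.13, limma adjusted p = 0.343). After rescaling the values no longer overlapped, at 429 to 554 against 269 to 309, and the difference was -0.75 (adjusted p = 0.00112). Higd1b, a mitochondrial membrane protein gene used as a pericyte marker, was at 18.4, 18.7 and 14.3 TPM in the controls and 15.5, 18.2 and 16.6 TPM with overexpression, and these groups overlapped too. The gene lies on chromosome 11 at 102835849 to 102838040. Its log2 difference was -0.02 (95% limits -0.34 to 0.29, limma adjusted p = 0.889) in TPM and -0.61 (adjusted p = 0.00412) after rescaling. The level of Higd1b per 100 units of Rgs5 was 4.19, 4.59 and 4.25 in the controls and 4.62, 4.73 and 4.64 with overexpression. That ratio changed 1.07-fold between the group means, the smallest change of any member relative to Rgs5.

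Cspg4 encodes the proteoglycan NG2 on the pericyte surface, from chromosome 9 at 56865033 to 56899870. It rose from 3.10, 3.36 and 2.35 TPM to 12.9, 14.3 and 12.7 TPM. The groups were far apart and each was tight. The means were 2.93 ± 0.526 and 13.3 ± 0.849 TPM, a 4.53-fold increase (SD, n = 3 each), with a log2(TPM + 1) difference of 1.87 (SE 0.15, limma adjusted p = 3.46e-05) and 1.34 after rescaling (adjusted p = 0.000142). Per 100 units of Rgs5 it went from 0.704, 0.824 and 0.698 to 3.84, 3.71 and 3.55. Cspg4 and Rgs5, which are used as markers of the same cell, therefore parted by 4.99-fold within the libraries.

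Mcam, an adhesion molecule of mural cells and endothelium also known as CD146, was at 36.9, 31.0 and 28.1 TPM in the controls and 72.2, 78.7 and 53.2 TPM with overexpression. All overexpression libraries were above all controls. The gene lies on chromosome 9 at 44134469 to 44142727. The increase was 2.13-fold, with a log2(TPM + 1) difference of 1.06 (SE 0.16, limma adjusted p = 0.000615). After rescaling it was 0.44 (adjusted p = 0.0313) and the groups overlapped. That rescaled call ended without control replicate 2 (adjusted p = 0.105), control replicate 3 (0.116), overexpression replicate 1 (0.0785) or overexpression replicate 2 (0.0969).

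Pdgfrb, the receptor through which PDGF-B reaches pericytes, was at 14.8, 22.7 and 14.7 TPM in the controls and 47.1, 39.7 and 21.7 TPM with overexpression. The groups overlapped, because overexpression replicate 3 lay below control replicate 2. The gene lies on chromosome 18 at 61045150 to 61085061. The increase was 2.08-fold, with a log2(TPM + 1) difference of 0.97 (SE 0.28, limma adjusted p = 0.0135). That call ended without control replicate 3 (adjusted p = 0.0503) or overexpression replicate 2 (0.0593). After rescaling the difference was 0.37 and was not called (adjusted p = 0.258). Without overexpression replicate 3 the rescaled difference was 0.64 and was called (adjusted p = 0.0323), and without overexpression replicate 1 it was 0.16 (adjusted p = 0.615).

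Notch3, the NOTCH receptor of arterial smooth muscle and pericytes, was at 8.51, 9.31 and 8.89 TPM in the controls and 14.5, 14.9 and 10.9 TPM with overexpression. The gene lies on the minus strand of chromosome 17 at 32120820 to 32166852. The groups did not overlap in TPM. The increase was 1.51-fold and the log2(TPM + 1) difference 0.53 (SE 0.15, limma adjusted p = 0.0110), close to the median shift of all genes. After rescaling it was -0.04 (95% limits -0.31 to 0.22, adjusted p = 0.793), so the direction seen in TPM did not hold.

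**Figure D3:**
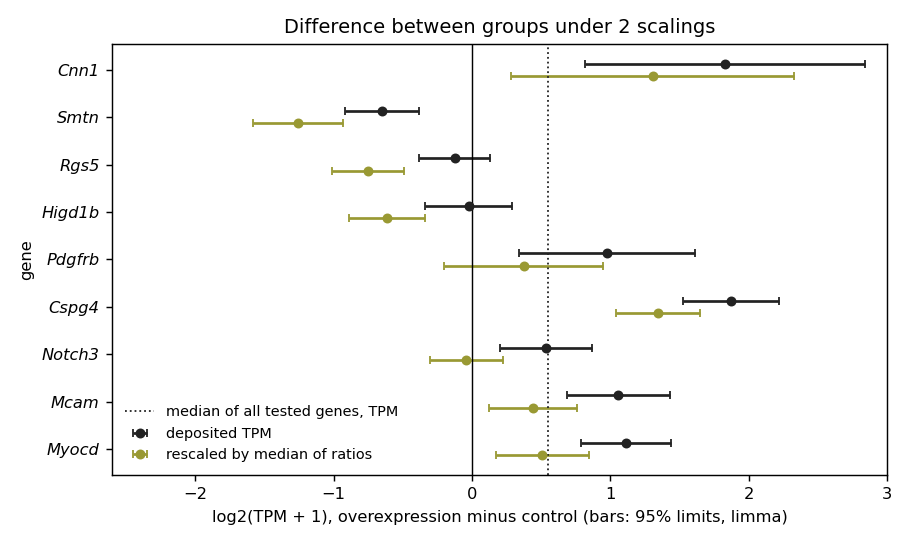
Difference in log2(TPM + 1), overexpression minus control, for the 9 tested members in deposited TPM (black) and after rescaling (olive), with 95% limits from limma; the dotted line marks the median of all tested genes in TPM (0.55). Cspg4 stays right of 0 and Smtn left of 0 in each scaling, while Notch3 sits on the dotted line in TPM and near 0 after rescaling.

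Myocd, on the minus strand of chromosome 11 at 65176561 to 65269989, was at 16.5, 19.3 and 22.8 TPM in the controls and 37.7, 47.7 and 44.4 TPM with overexpression. Each overexpression library was above each control. The means were 19.5 ± 3.14 and 43.3 ± 5.11 TPM, a 2.21-fold increase (SD, n = 3 each), with a log2(TPM + 1) difference of 1.11 (SE 0.14, limma adjusted p = 0.000259). After rescaling it was 0.51 (adjusted p = 0.0223), a call that ended without control replicate 1 (adjusted p = 0.0645), control replicate 2 (0.0728), overexpression replicate 2 (0.0673) or overexpression replicate 3 (0.0676). The ratio of Smtn to Myocd was 2.80, 2.17 and 2.04 in the controls and 0.660, 0.589 and 0.725 with overexpression. Of 10 markers of cardiomyocytes, which also make Myocd, 2 were higher and 5 lower in TPM, against 59.0% and 9.09% of all genes, and 0 were higher and 8 lower after rescaling, against 22.2% and 24.0%. Their summed level was 44557 to 50296 TPM in the controls and 39136 to 44191 TPM with overexpression, and none was at 0. Ryr2, the calcium release channel, was 9.54-fold lower and Pln, a regulator of the calcium pump, 7.01-fold lower, while Actn2, the Z-disc protein alpha-actinin, was 1.66-fold higher in TPM but was not called higher after rescaling. The markers' part in the Myocd result was not tested.

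Ratios within a library do not depend on scaling and show how unequally the members moved. Relative to Rgs5, the groups did not overlap for any of the other 9 members. How many of all genes separate relative to Rgs5 in this way was not computed, so the separation is not read as particular to the members. In TPM the median gene moved by 0.55 on the log2(TPM + 1) scale and Rgs5 by -0.13, so a typical gene also rose relative to Rgs5. Tagln, Cnn1, Cspg4, Myocd, Mcam, Pdgfrb and Notch3 were higher by 3.37-fold, 6.01-fold, 4.99-fold, 2.36-fold, 2.33-fold, 2.28-fold and 1.64-fold, respectively. Smtn was 1.46-fold lower. Without overexpression replicate 1, Cnn1 relative to Rgs5 was 3.10-fold higher. For each of the 9 ratios the exact permutation p (two-sided) was 0.1, the smallest p that 3 against 3 libraries allow. Relative to the geometric mean of 10 endothelial markers, Rgs5 went from 8.97, 7.89 and 8.02 to 5.68, 6.66 and 7.002, and Higd1b from 0.376, 0.362 and 0.341 to 0.262, 0.315 and 0.325. In neither of the 2 genes did the groups overlap (exact permutation p = 0.1 each). On this measure they did not overlap either for Smtn, 1.87-fold lower, or for Tagln, Cnn1, Cspg4, Notch3, Mcam and Myocd. Those genes were higher, from 1.27-fold (Notch3) to 4.37-fold (Cnn1), and only Pdgfrb overlapped. The share of all genes that separate on this measure was not computed, so here too the separation is not read as particular to the members. The mean log2(TPM + 1) of Tagln, Cnn1 and Smtn minus that of the 6 pericyte genes was -1.92 ± 0.128 in the controls and -2.04 ± 0.154 with overexpression (SD, n = 3 each), which differed by less than the spread between libraries. With medians over the genes in place of means that balance shifted upward by 1.29, to -0.12, -1.34 and -1.43 in overexpression replicates 1, 2 and 3. The median of the 3 contractile genes is Cnn1 in every library but overexpression replicate 1, where it is Smtn.

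**Figure D4:**
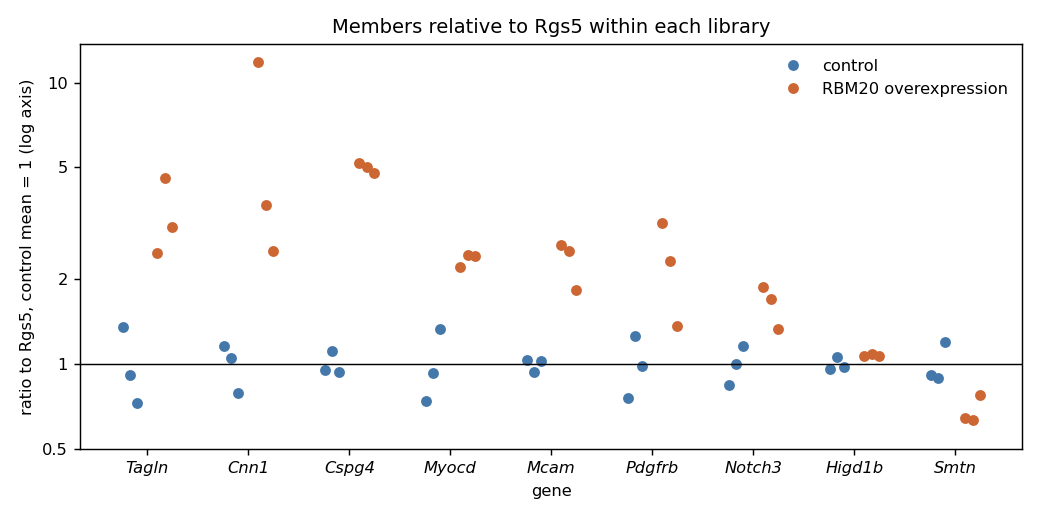
TPM of each member divided by that of Rgs5 in the same library, relative to the control mean, on a log axis with 1 point per library. Cspg4 sits near 5 in all 3 overexpression libraries, Cnn1 is spread widely with replicate 1 on top, Higd1b stays near 1 and Smtn lies below 1.

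The counts of the gene lists that follow are read beside those of all tested genes. Of these, 59.0% were called higher and 9.09% lower in TPM, and 22.2% higher and 24.0% lower after rescaling. All lists were chosen with earlier results of these data known, so their counts are descriptions. Of 12 other contractile genes of smooth muscle, 5 were higher and 0 lower in TPM, a smaller share higher than among all genes, with a median log2 difference of 0.32 beside 0.55. After rescaling 3 were higher and 2 lower, close to the share of all genes higher. Acta2 (log2 difference 0.16, adjusted p = 0.155) and Myh11, the smooth muscle myosin heavy chain at 19.2 ± 5.96 and 22.0 ± 3.48 TPM, were not called in TPM by limma (SD, n = 3 each), and Acta2 was lower after rescaling (-0.46, adjusted p = 0.0027). The 3 genes higher in each scaling encode cytoskeletal proteins. Tpm2, a tropomyosin, rose 4.01-fold, Cald1, which encodes caldesmon, rose 2.52-fold, and Synpo2, an actin-bundling protein gene, rose 2.06-fold.

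Of 19 other pericyte and mural genes 18 were matched in the table, and all 18 were tested. In TPM 3 were higher and 3 lower, fewer higher than the 59.0% of all genes. After rescaling 2 were higher and 10 lower, more lower than the 24.0% of all genes, and the medians were 0.17 and -0.41. The 3 genes with the smallest p are also made by cardiomyocytes. Des, the intermediate filament desmin, rose from 645 ± 45.8 to 2190 ± 422 TPM. Abcc9, the sulfonylurea receptor of potassium channels, fell from 115 ± 3.58 to 75.3 ± 5.93 TPM, and Art3, an ADP-ribosyltransferase family gene, fell from 428 ± 29.4 to 189 ± 71.3 TPM (SD, n = 3 each). These 3 calls kept their direction after rescaling.

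Of 5 PDGF genes 2 were higher in TPM, and 1 was higher and 1 lower after rescaling, each near or below the share of all genes. Pdgfb, a ligand of Pdgfrb made by endothelium, was at 25.9 ± 11.1 and 26.6 ± 13.5 TPM, with a wide spread between libraries (log2 difference 0.00, limma adjusted p = 1.00). Pdgfd, another ligand of Pdgfrb, was at 13.8 ± 2.09 and 15.2 ± 2.64 TPM (SD, n = 3 each), not called in TPM by limma (adjusted p = 0.507) and lower after rescaling (log2 difference -0.46, adjusted p = 0.0176). Pdgfc, a ligand that chiefly acts on the other receptor, rose from 0.617 ± 0.0644 to 6.08 ± 0.957 TPM, and Pdgfra, that receptor, rose 1.54-fold in TPM but not after rescaling (log2 difference 0.00). Of 15 NOTCH pathway genes 8 were higher and 0 lower in TPM, near the 59.0% of all genes, and 1 was higher and 1 lower after rescaling, below the shares of all genes. Dll4, an endothelial ligand, rose 2.26-fold in TPM (adjusted p = 0.00937 in limma, 0.169 after rescaling), and Jag1 was not called (adjusted p = 0.635). The nuclear partner Rbpj rose 2.13-fold and was higher in each scaling. Maml1, a NOTCH coactivator, rose 1.58-fold and Heyl, a NOTCH target of mural cells, rose 2.09-fold, in TPM only.

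Myocardin acts through serum response factor. Of 8 tested genes for this factor, its other coactivators and factors at the same promoters, 5 were higher and 0 lower in TPM, near the 59.0% of all genes, and 0 were higher and 1 lower after rescaling. The coactivators Mrtfa and Mrtfb were 2.24-fold and 1.72-fold higher in TPM, and Elk4 1.37-fold. Of 12 genes known as targets of this factor in many cell types, 10 were higher in TPM and 8 after rescaling, with 1 lower, and their medians were 1.43 and 0.82. Fhl1, a LIM-domain protein gene, rose 7.40-fold, Ccn2, a matricellular growth factor gene, rose 4.92-fold, and Tln1, which encodes talin, rose 3.12-fold. The list is described by its counts, without a test of the list itself.

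Markers of other cell types differed in how far they moved. Of 10 markers of activated fibroblasts 8 were higher and 0 lower in each scaling, and their summed level was 67.6 to 108 TPM in the controls and 924 to 1636 TPM with overexpression. Postn, a matrix protein, and the collagens Col8a1 and Col3a1, the 3 genes of this list with the smallest p, rose 44.8-fold, 15.6-fold and 11.5-fold. Of 9 tested resting fibroblast markers 6 were higher and 1 lower in TPM, near the 59.0% of all genes, and 4 were higher and 3 lower after rescaling, with sums of 1318 to 1759 and 1570 to 1817 TPM. Mfap5, Pcolce and Col15a1, all matrix genes, rose 7.28-fold, 5.65-fold and 6.41-fold. All 10 macrophage markers were higher in TPM and 9 after rescaling, with sums of 353 to 468 and 766 to 1338 TPM, and Cd68, a lysosomal glycoprotein, rose 4.41-fold. Of 10 endothelial markers 2, Robo4 and Esam, were higher in TPM, fewer than among all genes, and 0 were higher and 4 lower after rescaling, with sums of 514 to 634 and 638 to 708 TPM. Of 8 Schwann cell markers 4 were tested, with 1 higher in TPM and 1 lower after rescaling. None of the markers on these 5 lists was at 0 in every library. Their part in the rise of Tagln, Cnn1, Pdgfrb, Cspg4 and Mcam was not tested.

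**Figure D5:**
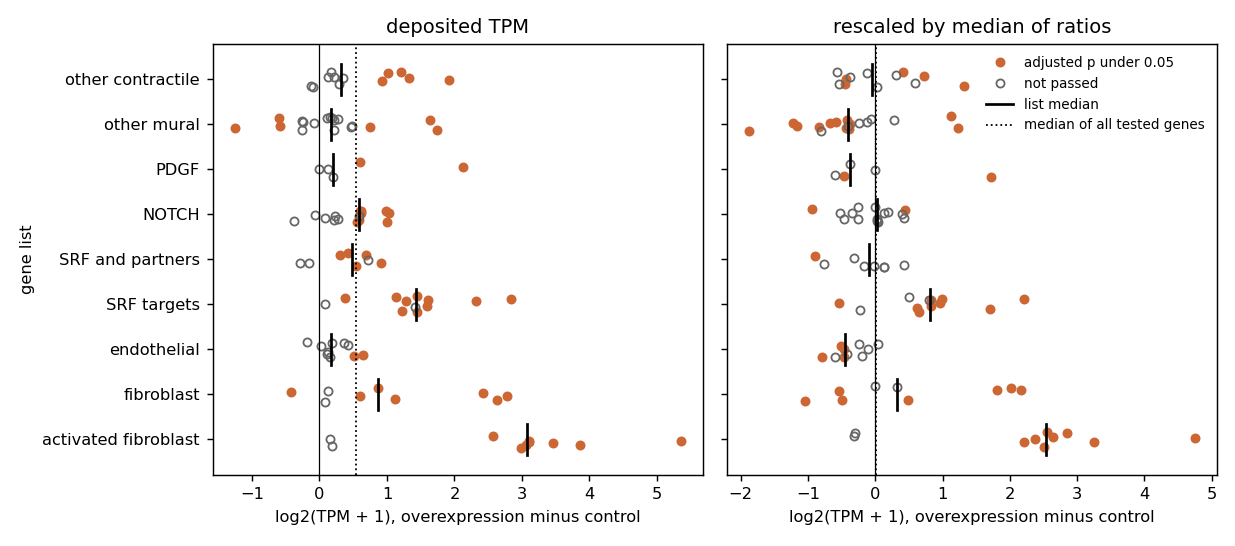
Difference in log2(TPM + 1) of each tested gene on 9 lists, in deposited TPM (left) and after rescaling (right). The lists were chosen with earlier results of these data known. Filled points mark an adjusted p under 0.05, a black bar each list's median and a dotted line the median of all tested genes. The activated fibroblast list lies far to the right in each panel (medians 3.08 and 2.53). Left of the dotted line in each panel lie the medians of the other contractile, other mural, PDGF, serum response factor and partners, and endothelial lists.

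Over the 6 libraries, the tested genes whose log2(TPM + 1) followed Rgs5 most closely were Mtx2 (Pearson r = 0.993), Ticam1 (0.978) and Dnajc30 (0.972), and 18 of 12403 genes exceeded 0.9. For Tagln they were Zfp932 (0.996), Tm2d2 (0.995) and Maoa (0.995), but 2045 of 12404 genes exceeded 0.9. With 6 points that share the split into groups, these values are descriptions.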

How the data were processed

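RNA of 6 left ventricle samples was enriched for poly(A) and sequenced as paired ends, described as strand-specific, from TruSeq libraries, per the labels' protocols. The authors deposited TPM per gene symbol, 1 column per sample, per the file headers. The build mm8 and, among tools, STAR-Fusion 1.11.0, GATK 4.2.6.1, edgeR 3.40.2 and featureCounts 2.0.3 stand without roles in the submitters' processing notes. The sources used here do not give the aligner, the annotation or the use of strand in counting. Gene positions are GRCm38 (GENCODE M21), promoters RefSeq GRCm38.p6; neither entered a test.

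Groups follow the genotype labels, replicates are numbered in order of accession, and no batch is given. The 12404 genes that reached a mean of 1 TPM were compared as log2(TPM + 1) with limma 3.58.1 (R 4.3.3, trended, two-sided, Benjamini-Hochberg, threshold 0.05). This scale understates the change of low genes, whereas printed folds divide 1 group's mean TPM by the other's. Reads were estimated from the steps of TPM times gene length: at GENCODE lengths 2081 of 4090 low genes (50.9%) were whole to 0.05 reads in all libraries, so estimates are approximate. On simulated libraries (11713 genes) 98.0% of 99 genes changed by 1 on the log2 scale were recovered, and 8 of 188 calls were of unchanged genes. In that simulation few genes changed, up or down at random, and no shift common to most genes was built in. Its rates therefore do not carry over to these libraries, where 68.1% of genes were called. The members and lists were chosen with earlier results of these data known. Named were all members, the 3 genes with the smallest p of each list, and set ligands and contractile genes. Of those 3, only 2 PDGF, 2 endothelial, 1 macrophage and 0 Schwann cell genes are printed. For sequences, the rule gave Cspg4 and Mcam; Smtn and Rgs5 were added after the search, and Mcam was left out because its window lies mostly in exons. Alternatives were other pseudocounts, filters, scalings and limma settings, and each library left out. Tables and figures used Python 3.11.15 and matplotlib 3.10.9.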

Additional observations from a re-analysis of the deposited data

How the results depend on the processing

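Cspg4 and Smtn kept direction and call under all 21 alternatives, 6 of which (rescaling with each library left out) were chosen after seeing the data. Cnn1, Mcam and Myocd kept their direction under all 21 and lost the call under 4 each. Pdgfrb lost it under 10, and Rgs5 and Higd1b gained one, downward, under 9 and 8. The causes were not tested. The Notch3 difference turned to -0.041 after rescaling and -0.040 under quantile normalization. When rescaled without control replicate 1, 2 or 3 it was -0.067, -0.051 or -0.029, and without overexpression replicate 1, 2 or 3 it was -0.088, -0.060 or 0.044. The count of members called higher, 6, was 3 under quantile normalization. It was 5 to 6 without each library in TPM and 1 to 4 without each library after rescaling. Over all genes tested, the count called higher, 7316 of 12404, was 2963 of 12404 under quantile normalization. Without each library it was 6198 to 7212 in TPM and 2045 to 2639 after rescaling, of 12273 to 12508 genes. The count of members called lower, 1, was 3 after rescaling, 3 under quantile normalization and 2 without mitochondrially encoded genes. It was 1 without each library in TPM and 3 without each library after rescaling. Over all genes tested, the count called lower, 1127, was 2974, 2816 and 1796 (of 13420) in the first 3 of these settings. Without each library it was 950 to 1088 in TPM and 2369 to 2839 after rescaling. From TPM to rescaled values, other contractile genes went from 5 to 3 higher and 0 to 2 lower, other pericyte genes from 3 to 10 lower, PDGF genes from 2 to 1 higher and 0 to 1 lower, NOTCH genes from 8 to 1 higher and 0 to 1 lower, factors at these promoters from 5 to 0 higher and 0 to 1 lower, and targets from 0 to 1 lower. The balance of contractile to pericyte genes, -0.12, reversed to 0.16 with a pseudocount of 0.1, 1.29 with medians and 0.47 against Rgs5, Higd1b and Notch3 alone, and was -0.20 to -0.05 without each library. No paired analysis was possible because the title numbers of the 2 groups do not match. Tagln had the fewest estimated reads of the members, and its level is uncertain.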
